A study of Mus musculus with 5 samples.

Results

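Chemokines are small secreted proteins that guide migrating cells through G protein-coupled receptors, and they fall into CC and CXC classes by the spacing of their first cysteines. Fibroblasts and other stromal cells release several of them, together with cytokines such as interleukin 6 and with prostaglandins made by the cyclooxygenases. In a growing tissue mass these products draw in monocytes, support macrophages and act on neighbouring cells.

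The chemokine genes with symbols beginning Ccl or Cxcl and a number, and 11 further genes of stromal inflammation (Cx3cl1, Il6, Il33, Il1rl1, Il11, Csf1, Tslp, Ptgs1, Ptgs2, Ptges and C3), were examined in 5 array samples of mouse embryonic stem cell (ESC) cultures. Of these, 40 genes had a probe set naming exactly 1 symbol, out of 19938 such genes on the array: 19 CC chemokines, 13 CXC chemokines and 8 of the 11 further genes. Ccl21a, Ccl21b, Ccl21c, Ccl21d, Ccl27a and Ccl27b share their probe sets with other genes, and these 6 were left out. C3, Il1rl1 and Ptgs1 were not analysed here.

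The 5 samples came from 4 cell populations. Heterologous ESC-like cells (1 array) grew out of the only teratoma that formed after B6CBAF1 ESCs alone were injected under the skin of B6D2F1 mice. Homologous ESC-like cells (1 array) came from a teratoma of the same ESCs in B6CBAF1 mice. Co-injection ESC-like cells (n = 2 arrays, batch 1 and batch 2) came from teratoma tissue of these ESCs mixed with B6D2F1 fetal fibroblasts and injected into B6D2F1 mice. Parental ESCs (1 array) were the B6CBAF1 line that was never injected. All 4 populations were grown in medium with leukemia inhibitory factor (LIF) on growth-arrested ICR embryonic fibroblasts, and the sources used here name no step that took these feeder cells out before RNA was extracted. The sample labels give 1 LIF concentration for all cells, while the methods of the study give a higher one for teratoma-derived cells than for ESCs, and the part of LIF in the differences was not tested. Nothing in the labels says whether the 2 co-injection batches were separate teratomas, so their SD may be technical.

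The values are log2 expression values from the robust multi-array average (RMA) method, and a difference of 1 between arrays is 2-fold. A gene was counted as higher or lower when it differed by more than 2-fold, with the co-injection arrays averaged. With 1 array per population outside the co-injection pair, these differences have no replicate check and no p-value is attached to them. The comparisons against parental ESCs all use the same parental array. The array medians over all probe sets lay between 7.48 and 7.54. As a measure of background, the 95th percentile of 1027 olfactory receptor genes was taken on each array, and it lay between 6.85 and 7.05. The co-injection pair differed by a median of 0.09 on the log2 scale over the 40 genes, with the widest gap, 0.35, at Tslp, and by a median of 0.07 over all 19938 genes. All 10 markers of pluripotent stem cells were above background on all 5 arrays.

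Most of the 40 genes were at background or differed little between populations. Of them, 17 lay above the olfactory receptor level on all 5 arrays, 6 on some arrays and 17 on none. In 30 genes no population differed from another by more than 2-fold, and 25 of these had a range under 0.5 over the 5 arrays. The other 10 were Ccl2, Ccl7, Cxcl12, Cxcl16, Csf1, Il33, Tslp, Il11, Ptgs2 and Ptges. Tslp was above background on no array, Il33 on the heterologous array only and Il11 on 3 of the 5. The heterologous value was the highest of the 4 populations in 15 of all 40 genes, and over all genes on the array in 21.3%. These 15 include each of the 10 except Cxcl16, but the 10 were picked for differing, so their own count is a description only.

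**Figure D1:**
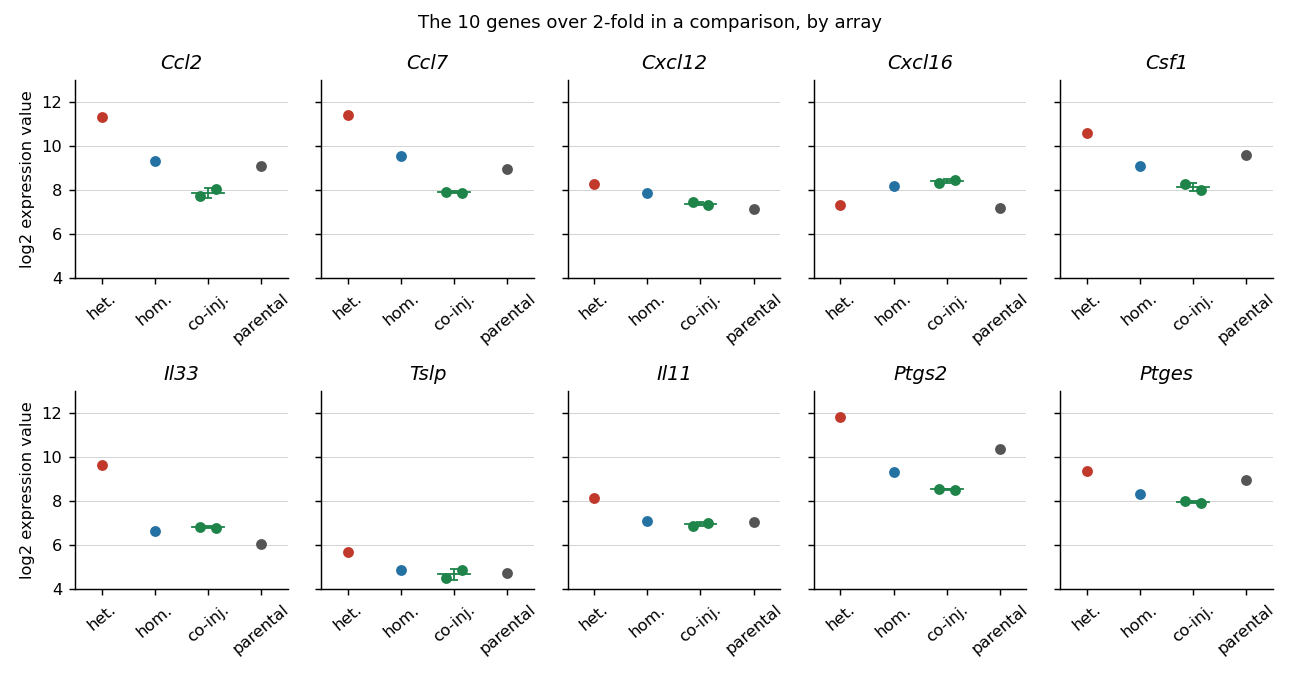
Log2 expression value (vertical axis) of the 10 genes that differed more than 2-fold in at least 1 comparison, in heterologous, homologous, co-injection and parental cells. Each point is 1 array, and the horizontal line with its bar is the mean ± SD of the 2 co-injection arrays. The heterologous point is the highest in every panel except that of Cxcl16. Both co-injection points lie below the parental one for Ccl2, Ccl7, Csf1, Ptgs2 and Ptges, and by little for Il11.

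The promoters of Csf1, Il11 and Il33 are shown because they hold a match to a motif of inflammatory or basal transcription in genes that differed between the populations. They are the 250 bases before the start site in RefSeq annotation of GRCm38.p6, in lower case with the match in capitals. The table of promoters held 8 start sites of 6 of the 10 genes, while Ccl2, Ccl7, Cxcl16 and Tslp are named only. The Csf1 promoter (chr3:107760470-107760719, minus strand) holds a match to the NF-kappaB consensus, read on the opposite strand, 154 to 145 bases before the start. The Il11 promoter of its other start site (chr7:4778142-4778391, minus strand) holds the AP-1 site TGANTCA, which reads the same on both strands, 98 to 92 bases before the start. Il33 has 2 start sites (chr19:29924863-29925112 and chr19:29945540-29945789, plus strand), each with TATAAA, which lies 203 to 198 bases before the first and 29 to 24 bases before the second.
Csf1: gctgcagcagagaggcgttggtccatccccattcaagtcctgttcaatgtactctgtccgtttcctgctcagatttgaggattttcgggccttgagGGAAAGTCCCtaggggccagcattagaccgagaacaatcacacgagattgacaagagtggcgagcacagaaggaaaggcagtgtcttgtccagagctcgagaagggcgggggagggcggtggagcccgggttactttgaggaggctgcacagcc
Il11: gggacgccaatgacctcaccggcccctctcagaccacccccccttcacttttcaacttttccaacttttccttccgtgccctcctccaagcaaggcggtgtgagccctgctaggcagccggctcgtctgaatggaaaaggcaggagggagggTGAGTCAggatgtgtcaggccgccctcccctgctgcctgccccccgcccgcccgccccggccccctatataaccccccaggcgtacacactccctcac
Il33 first start: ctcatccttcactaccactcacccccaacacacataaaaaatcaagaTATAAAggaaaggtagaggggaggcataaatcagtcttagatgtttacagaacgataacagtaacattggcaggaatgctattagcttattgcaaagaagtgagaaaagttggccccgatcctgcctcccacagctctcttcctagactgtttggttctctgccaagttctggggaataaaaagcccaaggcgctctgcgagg
Il33 second start: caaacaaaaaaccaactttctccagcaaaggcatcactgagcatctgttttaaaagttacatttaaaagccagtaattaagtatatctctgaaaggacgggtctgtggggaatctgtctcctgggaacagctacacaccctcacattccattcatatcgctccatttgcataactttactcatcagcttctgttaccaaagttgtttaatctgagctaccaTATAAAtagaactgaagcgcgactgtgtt

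Of all 32851 promoters of this length, 7.25% held the NF-kappaB consensus on either strand, 6.75% held TGANTCA and 12.4% held TATAAA. Among the 31 promoters found for 28 of the 40 genes, 9 held the NF-kappaB consensus, 4 held TGANTCA and 11 held TATAAA. Most of the 9 NF-kappaB matches were in genes within 2-fold on all arrays, namely Ccl1, Ccl9, Ccl20, Cxcl1, Cxcl2, Cxcl3, Cxcl10 and Il6. Among the 8 promoters of the genes that differed, 1 held the NF-kappaB consensus, 1 held TGANTCA and 2 held TATAAA, all printed above. The windows of Ptgs2, Ptges, Cxcl12 and the other start of Il11 held none of these letters.

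The first question was how ESC-like cells from the heterologous teratoma compared with the ESCs that had been injected. Ccl2, Ccl7, Cxcl12, Il33, Il11 and Ptgs2 were more than 2-fold higher in heterologous ESC-like cells than in parental ESCs, and none of the 40 genes was lower. These 6 genes are 15.0% of the 40. Over all genes, 3.98% were higher and 1.95% lower by this rule. The median difference over the 40 genes was 0.01, and over all genes it was −0.04.

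Ccl2 and Ccl7 encode monocyte chemoattractant proteins that act through the receptor Ccr2. Ccl2 had a log2 value of 11.31 in heterologous ESC-like cells, 9.29 in homologous cells, 7.71 and 8.02 in co-injection cells and 9.10 in parental ESCs. Ccl7 had 11.40 in heterologous cells, 9.54 in homologous cells, 7.92 and 7.85 in co-injection cells and 8.93 in parental ESCs. Both genes were thus highest on the heterologous array and lowest on the co-injection pair, with the homologous array nearest to parental ESCs. In heterologous over parental cells the log2 difference was 2.21 for Ccl2 (4.62-fold) and 2.47 for Ccl7 (5.52-fold). The gap within the co-injection pair was 0.32 for Ccl2 and 0.07 for Ccl7, well under these differences.

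Il33 encodes a nuclear cytokine that stromal and barrier cells release on damage, and it had the largest difference of the 40 genes between heterologous and parental cells. It had a log2 value of 9.64 in heterologous ESC-like cells, 6.66 in homologous cells, 6.84 and 6.78 in co-injection cells and 6.07 in parental ESCs. The difference from parental ESCs was 3.57, against an array where the gene was not above background, so no fold is given. Il11, a cytokine of the interleukin 6 family, had 8.16 in heterologous cells, 7.09 in homologous cells, 6.89 and 7.02 in co-injection cells and 7.04 in parental ESCs. Its value stood apart on the heterologous array (a difference of 1.12, or 2.17-fold), while the other 4 arrays lay near background.

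Cxcl12, the ligand of Cxcr4, had 8.24 in heterologous cells, 7.83 in homologous cells, 7.42 and 7.33 in co-injection cells and 7.15 in parental ESCs. All 4 teratoma-derived arrays lay above the parental one for Cxcl12, by 1.10 in heterologous cells (2.14-fold), 0.69 in homologous cells and 0.23 in the co-injection mean. Cxcl12 was the gene just past the 2-fold threshold, and Csf1, at 0.99, was the one just short of it.

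Csf1 encodes the main growth factor of macrophages. It had a log2 value of 10.58 in heterologous ESC-like cells, 9.06 in homologous cells, 8.24 and 8.001 in co-injection cells and 9.59 in parental ESCs. Its order was heterologous, parental, homologous and then co-injection, and the smallest step in this order, homologous minus parental cells, was −0.53, wider than the gap within the co-injection pair (0.24). Tslp, a cytokine of epithelial and stromal cells, had 5.70 in heterologous cells, 4.86 in homologous cells, 4.51 and 4.86 in co-injection cells and 4.71 in parental ESCs. The heterologous difference of Tslp was 0.98, on values that were all below background, and its homologous and parental values lay within or at the edge of the span of the co-injection pair.

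Ptgs2, the inducible cyclooxygenase (cyclooxygenase-2), and Ptges, an enzyme that turns its product into prostaglandin E2, act in sequence. Ptgs2 had a log2 value of 11.85 in heterologous cells, 9.32 in homologous cells, 8.56 and 8.51 in co-injection cells and 10.36 in parental ESCs. Ptges had 9.36 in heterologous cells, 8.33 in homologous cells, 7.99 and 7.92 in co-injection cells and 8.96 in parental ESCs. Both genes had the same order as Csf1, heterologous, parental, homologous and co-injection. In heterologous over parental cells the difference was 1.49 for Ptgs2 (2.80-fold) and 0.40 for Ptges (1.32-fold), so that of Ptges stayed within 2-fold.

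**Figure D2:**
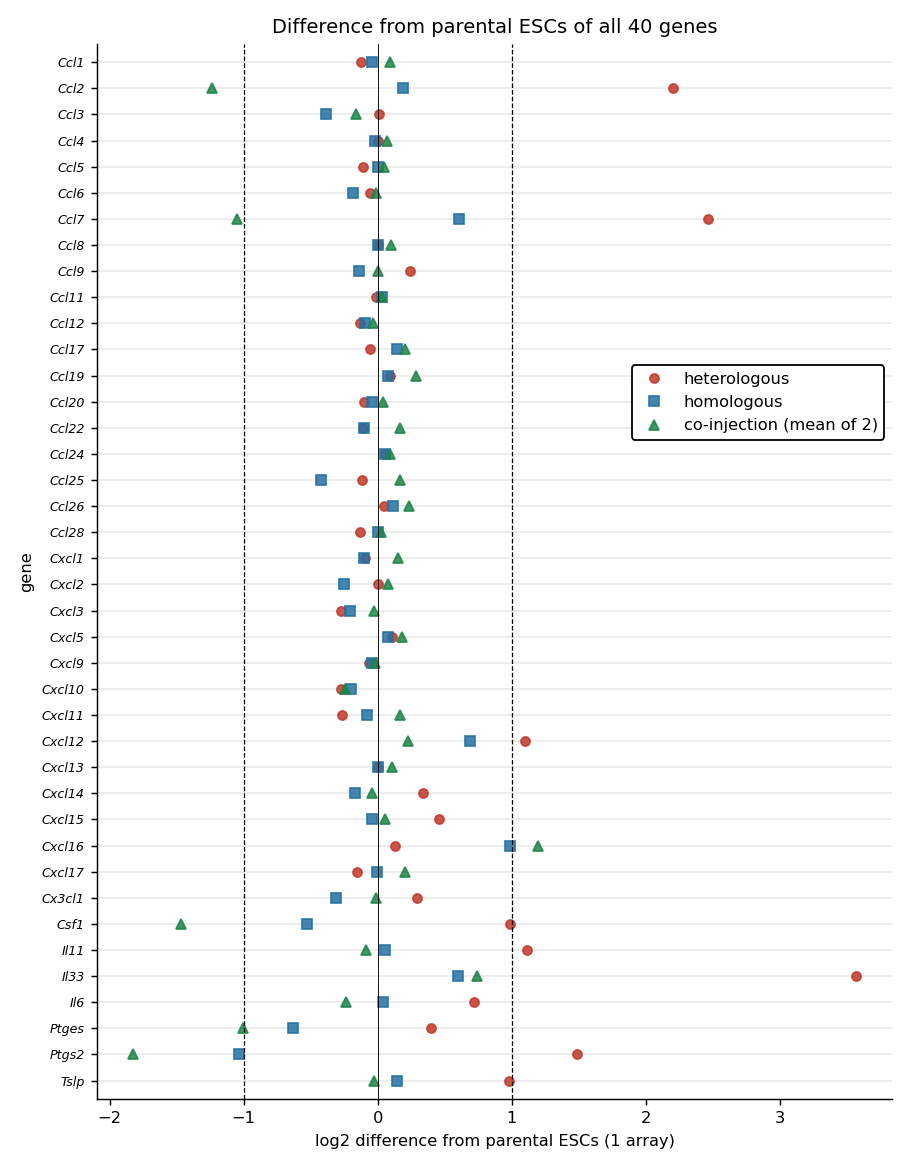
Log2 difference from the parental array (horizontal axis) of each of the 40 genes (rows), for the heterologous array, the homologous array and the mean of the 2 co-injection arrays. Dashed lines mark 2-fold. Most genes lie close to 0 in all 3 populations, 6 lie past the right line in heterologous cells, and 5 lie past the left line in co-injection cells, Ptges at −1.01 just past it.

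Most fibroblast markers were also higher on the heterologous array. Of 12 fibroblast markers, 10 were more than 2-fold higher in heterologous ESC-like cells than in parental ESCs, with a median difference of 1.67 and a range of 0.49 to 3.30. The largest were Postn (3.30), which encodes a matrix protein, Pdgfrb (3.10), a growth factor receptor of mesenchymal cells, and Dcn (2.67), a matrix proteoglycan. The linear values of the 12 markers summed to 11329 in heterologous cells, 3709 in homologous cells, 2229 and 2198 in co-injection cells and 2780 in parental ESCs. Lum and Fap were above background on no array. Relative to parental ESCs the median of the fibroblast markers was 1.67 in heterologous cells, 0.36 in homologous cells and −0.17 in co-injection cells. The median of all 40 inflammatory genes was 0.01, −0.03 and 0.05 in the same order, and that of the 10 picked for differing by more than 2-fold was 1.11, 0.17 and −0.55. The part of fibroblasts in these differences was not tested. In bulk RNA, fewer or more cells of a type and less or more RNA per cell cannot be told apart.

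**Figure D3:**
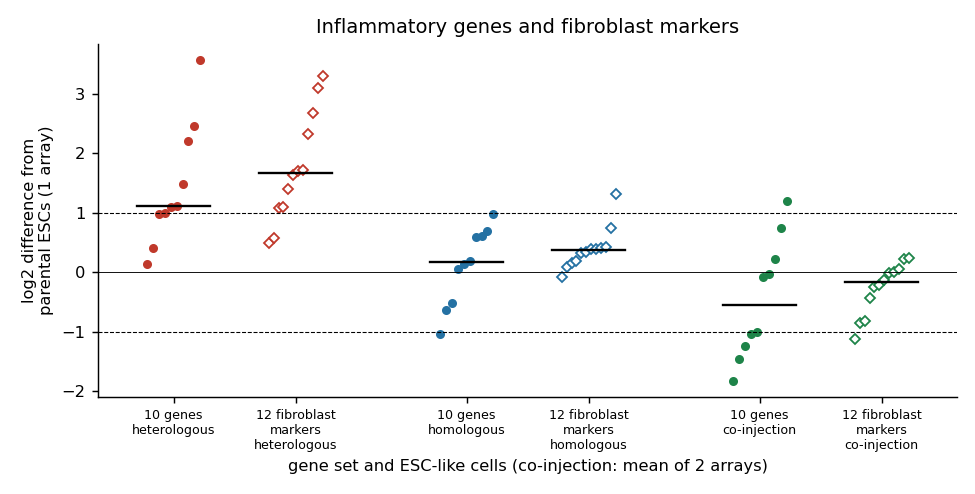
Log2 difference from parental ESCs (vertical axis) of the 10 inflammatory genes picked for differing by more than 2-fold (filled circles) and 12 fibroblast markers (open diamonds) in heterologous, homologous and co-injection ESC-like cells. Each symbol is 1 gene, black bars are medians and dashed lines mark 2-fold. The medians are 1.11 and 1.67 in heterologous cells, 0.17 and 0.36 in homologous cells, and −0.55 and −0.17 in co-injection cells.

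The markers of stem cells had a median below parental ESCs in all 3 populations of ESC-like cells. Of the 10 pluripotency markers, 3 were more than 2-fold lower in heterologous ESC-like cells than in parental ESCs, namely Zfp42 (−1.63), Klf4 (−1.43) and Esrrb (−1.18), with a list median of −0.52. In homologous cells Klf4 was lower (−1.08), with a list median of −0.28, and in co-injection cells none passed 2-fold, with a list median of −0.22. Their linear values summed to 41940 in heterologous cells, 46404 in homologous cells, 46883 and 46965 in co-injection cells and 54894 in parental ESCs. Of 6 endothelial markers, Pecam1, which ESCs express too, was lower in heterologous cells (7.99 against 9.43 in parental ESCs, a difference of −1.44). The part of these markers' cells in the inflammatory genes was not tested.

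Immune cells can also make such mediators, and their markers were mostly at background. Of 9 measured macrophage markers, 6 (Adgre1, Csf1r, Cd14, Fcgr1, Mrc1 and Aif1) were above background on no array. The same held for 4 of 6 neutrophil, 5 of 7 T and NK cell, 3 of 5 mast cell and 1 of 2 B cell markers. Cd68, Itgam, Elane, Cd3e, Cd8a and Kit were above background on all 5 arrays. Lyz2, the lysozyme of myeloid cells, was the macrophage marker that was more than 2-fold higher in heterologous cells, at 7.02 against 5.86 in parental ESCs, a difference of 1.16. Its heterologous value alone was above background. Cd68, which marks lysosomes of macrophages and other cells, was lower in homologous ESC-like cells than in parental ESCs by 1.31 on the log2 scale. It was also lower in heterologous cells (−0.76) and co-injection cells (−0.85), within 2-fold. The median difference of the macrophage list in heterologous cells was 0.07. The part of immune cells in the inflammatory genes was not tested.

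Homologous ESC-like cells differed less from parental ESCs. Ptgs2 alone passed the threshold, with 9.32 in homologous cells and 10.36 in parental ESCs (a difference of −1.04, or 2.05-fold lower), and none of the 40 genes was higher. This is 2.5% of the 40 genes, beside 1.6% of all genes lower and 1.45% higher. Cxcl16, a membrane-bound chemokine that binds Cxcr6, came nearest on the higher side at 0.99. Cxcl12, Ccl7 and Il33 followed with 0.69, 0.61 and 0.60, and Ptges and Csf1 lay on the lower side with −0.64 and −0.53. The median difference was −0.03 over the 40 genes and −0.01 over all genes. Of the fibroblast markers, 1 of 12, Pdgfrb, was more than 2-fold higher (1.31).

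Co-injection ESC-like cells had both lower and higher genes relative to parental ESCs. Ccl2, Ccl7, Csf1, Ptges and Ptgs2 were more than 2-fold lower and Cxcl16 was more than 2-fold higher. The 5 lower genes are 12.5% of the 40, beside 1.44% of all genes, and the 1 higher gene is 2.5%, beside 0.647% of all genes. The median difference was 0.05 over the 40 genes, 24 of which were above 0, and 0.04 over all genes. Ptgs2 had the largest difference, −1.82 (3.54-fold lower), with a mean of 8.53 ± 0.035 in co-injection cells (SD, n = 2) against 10.36 in parental ESCs. Csf1 followed with −1.47 (2.77-fold lower; 8.12 ± 0.17 in co-injection cells) and Ccl2 with −1.24 (2.36-fold lower; 7.86 ± 0.22). Ccl7 was lower by 1.05 (2.07-fold, 7.88 ± 0.050) and Ptges by 1.01 (2.01-fold, 7.96 ± 0.053).

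Both co-injection arrays lay below the parental one for each of these 5 genes. By single arrays, batch 1 had 4 lower genes and batch 2 had 5, beside 301 and 287 of all 19938 genes. Without batch 2 the Ptges difference was −0.97, within 2-fold. Il33 was the nearest gene outside the threshold, at 0.74, with all values but the heterologous one under background. The fibroblast markers had a median of −0.17, and 1 of 12, Thy1, was more than 2-fold lower (−1.12).

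Cxcl16 was highest in co-injection cells, unlike the other genes past 2-fold, which were highest in heterologous cells. It had a log2 value of 7.32 in heterologous ESC-like cells, 8.17 in homologous cells, 8.32 and 8.45 in co-injection cells and 7.19 in parental ESCs. Parental and heterologous cells formed the lower end for Cxcl16, 0.13 apart, about the gap between the 2 co-injection arrays (0.13), and homologous and co-injection cells formed the upper end. In co-injection over parental cells the difference was 1.20 (2.29-fold). Its receptor gene Cxcr6 was above background on no array.

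The next comparison set heterologous against homologous recipients of ESCs alone. Ccl2, Ccl7, Csf1, Il11, Il33, Ptges and Ptgs2 were more than 2-fold higher in heterologous than in homologous ESC-like cells and none of the 40 genes was lower, 17.5% and 0% of the genes. Over all genes 2.41% were higher and 0.647% lower. The median difference was 0.02 over the 40 genes and −0.01 over all genes. The differences were 2.97 for Il33 (not above background in homologous cells), 2.52 for Ptgs2 (5.75-fold), 2.02 for Ccl2 (4.05-fold), 1.86 for Ccl7 (3.62-fold), 1.51 for Csf1 (2.86-fold), 1.06 for Il11 and 1.03 for Ptges. Cxcl16 was on the lower side with −0.85 and Cxcl12 on the higher with 0.41, both within 2-fold. Of the 12 fibroblast markers, 8 were higher, with a median of 1.27.

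Between the types of injection into the same recipient strain, co-injection ESC-like cells were set against heterologous cells from ESCs alone. Ccl2, Ccl7, Csf1, Il11, Il33, Ptges, Ptgs2 and Tslp were more than 2-fold lower in co-injection cells and Cxcl16 was higher, 20.0% and 2.5% of the 40 genes. Over all genes 2.99% were lower and 0.361% higher. The median difference was 0.06 over the 40 genes, 25 of which were above 0, and 0.07 over all genes. The largest differences were those of Ccl7 (−3.52, 11.4-fold lower), Ccl2 (−3.44, 10.9-fold lower), Ptgs2 (−3.31, 9.92-fold lower) and Csf1 (−2.45, 5.48-fold lower). Il33 differed by −2.83, but it was not above background on either co-injection array, so no fold is given. The SD of the co-injection pair for the genes with a fold here was at most 0.22.

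Cxcl16 was higher in co-injection than in heterologous cells by 1.06 (2.09-fold), and by 0.98 after cyclic loess normalization, which is within 2-fold. Tslp was lower by 1.01, and by 0.84 without batch 1, on values below background. Il6, the gene with the widest range among the 30 that stayed within 2-fold, had 4.03 and 4.04 in co-injection cells, 4.31 in homologous cells, 4.99 in heterologous cells and 4.28 in parental ESCs. All 5 Il6 values were below background, and after cyclic loess Il6 was lower in co-injection than in heterologous cells by more than 2-fold (−1.02). Of the fibroblast markers, 10 of 12 were lower in co-injection than in heterologous cells, with a median of −1.79.

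Co-injection and homologous ESC-like cells differed in few of these genes. Ccl7 (−1.66, 3.16-fold lower) and Ccl2 (−1.43, 2.69-fold lower) were the 2 genes that differed by more than 2-fold, both lower in co-injection cells, which is 5.0% of the 40 genes beside 0.351% of all genes. None was higher, beside 0.0752% of all genes. The median difference was 0.10 over the 40 genes, 29 of which were above 0, and 0.04 over all genes. Csf1 (−0.94) and Ptgs2 (−0.79) were also lower and within 2-fold, and without batch 1 the Csf1 difference was −1.06. Of the fibroblast markers 3 of 12 were lower, with a median of −0.38.

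Ccl2, Ccl7 and Ptgs2 (3 of the 40 genes) were more than 2-fold above parental ESCs on the heterologous array and more than 2-fold below it on both co-injection arrays. Over all genes, 21 of 19938 had this pattern (0.105%). With any size of difference, 11 of the 40 genes lay above parental ESCs in heterologous cells and below them in the co-injection mean, as did 9.63% of all genes. Cxcl12 and Il33 lay above parental ESCs in heterologous and co-injection cells alike, as did Cxcl16.

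Ccl2 and Ccl7 are neighbours in a cluster of CC chemokine genes on chromosome 11, in the order Ccl2, Ccl7, Ccl11, Ccl12, Ccl8 and Ccl1. The other 4 genes of the cluster stayed within 0.14 of parental ESCs in all 3 populations. Ccl11, the eosinophil chemoattractant eotaxin, was above background on all 5 arrays, with values from 7.37 to 7.41. Ccl1, Ccl8 and Ccl12 were above background on none. The nearest genes on the other side of Ccl2 differed from parental ESCs in heterologous cells by −0.18 (Spaca3), −0.09 (Asic2) and −0.03 (1700071K01Rik). The genes past 2-fold were thus 2 adjacent ones, with their flanking genes close to parental ESCs.

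The other chemokine clusters showed no such pair. In the second CC cluster of chromosome 11 (Ccl5, Ccl9, Ccl6, Ccl3 and Ccl4) the widest difference from parental ESCs was 0.39, for Ccl3 in homologous cells, on the lower side. Ccl5, a chemoattractant of T cells, was above background on all 5 arrays, with values from 7.26 to 7.46. The neutrophil-attracting CXC genes on chromosome 5 (Cxcl5, Cxcl3, Cxcl15, Cxcl1 and Cxcl2) differed by at most 0.46, for Cxcl15 in heterologous cells. Only Cxcl1 of this cluster was above background, with 7.79 in heterologous cells, 7.79 in homologous cells, 7.96 and 8.13 in co-injection cells and 7.89 in parental ESCs. In the interferon-inducible group on the same chromosome (Cxcl9, Cxcl10 and Cxcl11) the widest difference was 0.27, for Cxcl10 in heterologous cells. Ccl22, Cx3cl1 and Ccl17 on chromosome 8 differed by at most 0.31, and Ccl26 and Ccl24 on chromosome 5 by at most 0.23.

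**Figure D4:**
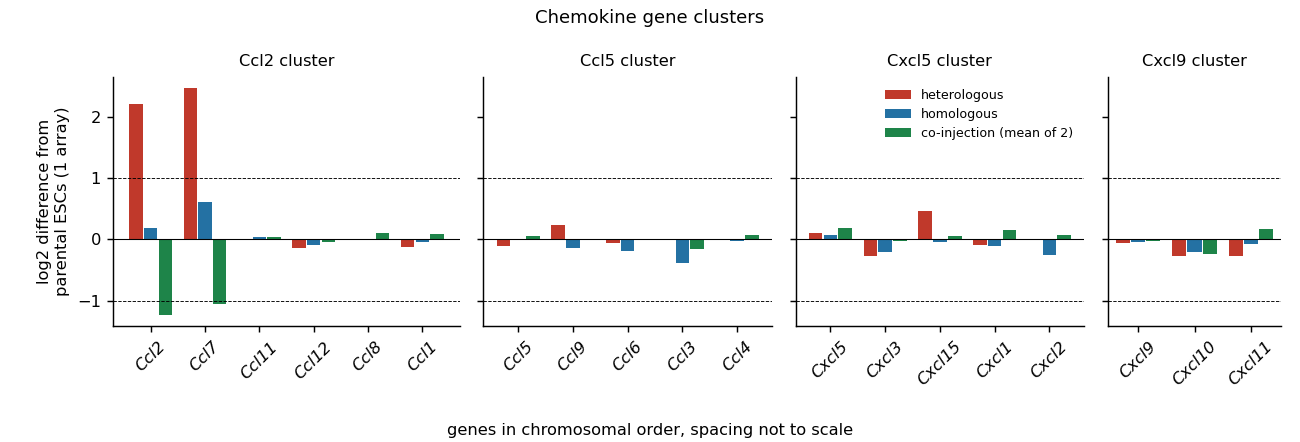
Log2 difference from parental ESCs (vertical axis) of chemokine genes in 4 chromosomal clusters, in gene order with spacing not to scale, for heterologous, homologous and co-injection cells (bars; co-injection is the mean of 2 arrays). Dashed lines mark 2-fold. Ccl2 and Ccl7 pass the lines, while the other 4 genes of their cluster stay within 0.14 of parental ESCs and all genes of the remaining clusters within 0.46.

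The other chemokine genes on the array were nearly flat. The 17 CC chemokines besides Ccl2 and Ccl7 had ranges over the 5 arrays of at most 0.67, at Ccl25, which has 2 probe sets that disagree. Its brighter probe set was lower in homologous cells than in parental ESCs by 0.42 on the log2 scale and the other was higher by 0.43. The 5 probe sets of Ccl19, a ligand of Ccr7, gave a co-injection difference between 0.25 and 0.29. The 11 CXC chemokines besides Cxcl12 and Cxcl16 had ranges of at most 0.50, at Cxcl14. Cx3cl1, the membrane-bound fractalkine, had 8.32 in heterologous cells, 7.71 in homologous cells, 8.01 on both co-injection arrays and 8.03 in parental ESCs. In 15 of the 40 genes at least 2 arrays held exactly the same value, as in 30.2% of all genes, and Ccl8 and Cxcl13 had the same value on 4 arrays.

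Of 22 measured chemokine receptor genes none differed by more than 2-fold in any of the 6 comparisons, and 12 were above background on no array. The highest heterologous differences were Cxcr6 (0.35) and Cxcr4 (0.14), and the lowest were Ccr4 (−0.81) and Ackr3 (−0.55), a scavenger of Cxcl12. Ccr4 and Ackr3 were also lower in homologous cells (−0.74 and −0.80) and co-injection cells (−0.69 and −0.59). Ccr2, the receptor of Ccl2 and Ccl7, had 4.50 in heterologous cells, 4.64 in homologous cells, 4.65 and 4.61 in co-injection cells and 4.61 in parental ESCs, all below background. Cxcr4 was above background on all 5 arrays, with 7.34 in heterologous cells, 7.43 in homologous cells, 7.37 and 7.39 in co-injection cells and 7.19 in parental ESCs. In each direction of a comparison, between 0.0752% and 3.98% of all genes passed 2-fold, so none of 22 receptor genes is near that share. Among 8 chemokine-like genes outside the naming rule, Cmtm3 was more than 2-fold higher in heterologous cells (1.43), Ppbp followed with 0.46, and Cmtm7 (−0.49) and Pf4 (0.00) were the lowest. Ppbp and Pf4 encode platelet chemokines and lie within the Cxcl5 cluster.

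Among the related gene lists, a receptor of the interleukin 6 family had the largest difference between heterologous and parental cells. Osmr, the oncostatin M receptor subunit, had a log2 value of 10.21 in heterologous cells, 8.60 in homologous cells, 6.37 and 6.70 in co-injection cells and 7.16 in parental ESCs. Its order, heterologous, homologous, parental and co-injection, is that of Ccl2 and Ccl7. The difference from parental ESCs was 3.05 in heterologous cells, 1.43 in homologous cells and −0.63 in co-injection cells. Tnfrsf1a, a receptor of tumor necrosis factor, was the other of 11 cytokine receptor genes to pass the threshold, at 1.16 in heterologous cells, and Lifr (−0.68) and Il6ra (−0.26) were the lowest there. Il6st, the signalling subunit shared by Osmr and Lifr, differed by 0.09.

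Other inflammatory cytokines were not among the genes past the threshold. Of 14 measured, none differed by more than 2-fold in any comparison, and 8, Il1b and Tnf among them, were above background on no array. Over all genes 0.0752% to 3.98% passed 2-fold in each direction of a comparison, so none of 14 is near that share. In heterologous cells the highest were Il1rn (0.75) and Il15 (0.69) and the lowest Osm (−0.92) and Il1a (−0.32). Of 16 other genes of prostaglandin synthesis, breakdown and reception, Pla2g4a, the phospholipase that frees arachidonic acid, was higher in heterologous cells than in parental ESCs (8.85 against 7.30, a difference of 1.56). Slco2a1, a prostaglandin transporter, was lower in homologous cells (8.70 against 10.15 in parental ESCs, a difference of −1.45). Ptger4, a receptor of prostaglandin E2, came second on the higher side in heterologous cells with 0.23, and Slco2a1 (−0.35) and Ptges2 (−0.23), a further prostaglandin E synthase, were the lowest there.

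Of 25 complement genes, Masp1, a protease of the lectin pathway, was higher in heterologous cells than in parental ESCs (9.83 against 7.12, a difference of 2.71), and Cfp, which encodes properdin, was lower (8.11 against 9.14, a difference of −1.04). Cfp was nearly as much lower in homologous cells (−0.89) and co-injection cells (−0.89). Cd59a, an inhibitor of the membrane attack complex, at 0.80 and Masp2, a protease related to Masp1, at −0.40 came next on either side. Of 21 genes of the NF-kappaB pathway, Vcam1, an adhesion molecule and target of the pathway, was higher in heterologous cells (9.05 against 7.49, a difference of 1.56), and Rel, one of its transcription factors, was lower in co-injection cells (−1.04). Vcam1 was also lower in co-injection cells than in homologous cells (a difference of −1.11) and than in heterologous cells (−2.37). In heterologous cells Tlr4, the receptor of lipopolysaccharide, came after Vcam1 with 0.97, but it was above background on no array. The lowest there were Nfkbia (−0.86), an NF-kappaB inhibitor and target gene, and the adhesion molecule gene Icam1 (−0.85). Each of these was within 2-fold. Nfkbia and Icam1 were also lower than in parental ESCs in homologous cells (−0.67 and −0.92) and co-injection cells (−0.47 and −0.85).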

How the data were processed

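RNA from each of the 5 samples was run on a Mouse Gene 1.0 ST array (Affymetrix). From the probe intensities (GCOS) the authors computed RMA values with quantile normalization, and the deposited table holds these as log2 values of 35556 probe sets; software versions and the build were not given in the sources used here. Scanner files were not used. By the platform annotation 21789 probe sets carry 1 symbol, 1621 several and 12146 none. Where a gene had several probe sets, the brightest over the 5 arrays was used. Genes more than 2-fold apart in any comparison are named with all values, and of each related list the 2 highest, the 2 lowest and all past 2-fold. Others were named after their values were seen (Ccl1, Ccl5, Ccl8, Ccl11, Ccl12, Ccl19, Ccl25, Ccr2, Cx3cl1, Cxcl1, Cxcl14, Il6, Il6st and the genes beside Ccl2). Il1b and Tnf were named in the same way. The genes and lists were chosen with earlier results of these data known. Chromosomes and promoters come from RefSeq (GRCm38.p6). The main values have no test. As an alternative, limma 3.58.1 (lmFit and eBayes, p-values adjusted by Benjamini-Hochberg) was run on 1 residual and 0.797 prior degrees of freedom, and simulated data were used to check it and the fold rule. Other alternatives were 1.5-fold and 3-fold thresholds, no dim genes, the mean of probe sets, cyclic loess and leaving out each co-injection array. Python 3.11.15, numpy 2.4.6, pandas 2.3.3, matplotlib 3.10.9 and R 4.3.3 were used.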

Additional observations from a re-analysis of the deposited data

Results flagged for a closer look

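Ccl2, Ccl7 and Ptgs2 moved in opposite directions from parental ESCs in co-injection and heterologous ESC-like cells, with both co-injection arrays on 1 side. The differences between co-injection and heterologous cells were −3.44 for Ccl2, −3.52 for Ccl7 and −3.31 for Ptgs2 on the log2 scale. Each rests on 1 heterologous array, 1 parental array and 2 co-injection arrays, and the difference in response was not tested.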

How the results depend on the processing

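The number of genes past the threshold was 6 in heterologous against parental cells, 1 in homologous against parental, 6 in co-injection against parental, 7 in heterologous against homologous, 9 in co-injection against heterologous and 2 in co-injection against homologous cells. With a 3-fold threshold the numbers were 3, 0, 1, 4, 5 and 1 in this order. With a 1.5-fold threshold the homologous against parental count was 6, heterologous against homologous 11 and co-injection against homologous 5. The shares of all genes past 1.5-fold and 3-fold are not given here, so these counts cannot be set against the whole array. limma called 0 genes at an adjusted p under 0.05 in each of the 6 comparisons (over all genes also 0), with 16, 10, 10, 16, 18 and 14 of the 40 genes at an unadjusted p under 0.05, beside 6842, 5888, 5739, 5486, 6516 and 3530 of all 19938 genes (17.7% to 34.3%). With 1 residual degree of freedom this says nothing about stability. Without co-injection replicate 1 and without replicate 2 the counts ranged from 5 to 6 against parental, 8 to 9 against heterologous and 2 to 3 against homologous cells. Leaving out dim genes or averaging probe sets kept every count within 1. Cyclic loess moved the differences of the 40 genes by at most 0.13 and turned the sign of none of the 10 genes past 2-fold. It brought Csf1 and Tslp (both 1.03) past the threshold in heterologous against parental cells, and in co-injection against heterologous cells it brought in Il6 (−1.02) and took out Cxcl16 (0.98), leaving 0 higher and 9 lower genes. No paired analysis was possible because the sample labels used here name no pairing between populations, with 1 array each outside co-injection. The arrays' number limits the precision.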
